A study of Homo sapiens with 8 samples.

Results

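Solute carriers are the membrane proteins of the SLC families, which move amino acids, sugars, nucleosides, ions, metals and metabolites across the plasma membrane and the membranes of organelles. The 179 genes described here were chosen by a rule: a symbol made of SLC, digits, a letter and digits, no antisense or pseudogene name, and a mean raw count of 100 or more over the 8 libraries. They are 179 of the 364 genes with such a symbol in the deposited table. Of the other genes, 165 had counts but a mean under 100, and 20 had a count of 0 in every library. Because the mean over all 8 libraries chose the genes, their levels are given as a description. The difference between the groups was not itself used in the choice, but a gene near the limit can pass it through the group where it is higher.

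The samples were 8 RNA sequencing libraries of THP1, an established human cell line labelled as acute myeloid leukaemia. In 4 libraries the cells carried an empty vector (MOCK), and in the other 4 a construct labelled both iRxI/AxA mutant and RRM2 OE (RRM2_OE). RRM2 is a subunit of ribonucleotide reductase, which makes deoxynucleotides, and the comparison asks how expression differs in cells that carry the construct. Doxycycline was given to both groups at the same dose, 2 µg/mL. The labels give no promoter, clone or harvest time, and they do not say whether replicates were separate cultures, so p-values measure the spread between these libraries, which may be technical. RRM2 itself was at 116 to 128 CPM (counts per 1000000 of the TMM-scaled library total) in the MOCK libraries and 215 to 236 CPM in the RRM2_OE libraries, the direction that the label gives.

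Amino acid carriers of the plasma membrane include exchangers, such as the pair formed by SLC7A11 or SLC7A5 with the heavy chain SLC3A2, and sodium-coupled uptake carriers such as SLC1A4, SLC1A5 and SLC38A1. SLC7A11 brings in cystine for glutathione synthesis, SLC2A1 and SLC2A3 bring in glucose, and the SLC29 and SLC28 families carry nucleosides, the salvage route beside the deoxynucleotide synthesis that RRM2 serves. In blood cell precursors, SLC40A1 exports iron, SLC25A37 delivers it to mitochondria and SLC4A1 exchanges chloride for bicarbonate in the red cell membrane.

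Library totals lay between 10994255 and 11686152 counts, and the 179 genes took 1.22 to 1.32% of them. The myeloid markers SPI1, CEBPA, CD33 and CD4 stood above 120 CPM in the MOCK mean, whereas CD68 averaged 8 counts and was not tested. Red cell genes were also expressed, with HBB at 324 CPM and HBA1 at 161 CPM in the MOCK mean. The 12 red cell markers summed to 745 to 796 CPM in the MOCK libraries and 564 to 660 CPM in the RRM2_OE libraries. HBB and HBA1, the largest parts of this sum, overlapped between the groups and were not called (edgeR adjusted p = 0.199 and 0.777). They differed between odd-numbered and even-numbered libraries in opposite directions (log2 difference of odd over even -0.51 and 1.13). The 7 tested lymphoid markers summed to 51.9 to 58.3 CPM in MOCK and 73.9 to 89.9 CPM in RRM2_OE. The 11 tested myeloid markers summed to 3809 to 3990.1 CPM in MOCK and 3705 to 3749 CPM in RRM2_OE, with CD86, LYZ, ITGAM, CD14 and CSF1R higher and MPO lower. The part of the myeloid and lymphoid markers in the changes of the carriers was not tested. Odd-numbered and even-numbered libraries stood apart from each other in both groups, and the labels name no batch.

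By sorting the genes on what they carry, 26 were placed as amino acid carriers, 14 as sugar carriers, 5 as carriers of nucleosides or nucleobases, 25 as ion carriers and 24 as metal carriers. A further 32 were mitochondrial carriers of the SLC25 family, 19 nucleotide sugar carriers and their relatives, 12 organic ion, peptide and neurotransmitter carriers, 9 lipid carriers, 7 vitamin carriers and 3 carboxylate carriers, and 3 were left unassigned. The genes just inside the count limit were SLC4A8, at a mean of 101.625 counts, and SLC49A4 and SLC22A17, both at 102.375. Just outside it were SLC9B1 at 97.125, SLC25A42 at 97 and SLC22A4 at 94.875 counts. SLC49A4 and SLC22A17 averaged less in MOCK (8.15 and 8.09 CPM) than in RRM2_OE (9.8 and 9.87 CPM).

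Levels between genes were compared in the authors' RPKM, reads per kilobase of exon scaled to library size. The median of the 179 genes over the 8 libraries was 7.86 RPKM, the range 0.78 to 150.4 RPKM, with 31 genes over 20 and 53 under 5 RPKM. The ADP/ATP carriers of the mitochondrial inner membrane led: SLC25A6 stood at 151 ± 3.88 RPKM in MOCK and 141 ± 5.43 RPKM in RRM2_OE, and SLC25A5 at 151 ± 6.70 RPKM in MOCK and 150.0 ± 3.29 RPKM in RRM2_OE. These near-identical paralogs have processed copies in the genome, so reads shared between them make their levels uncertain. The iron exporter SLC40A1 came next, at 119.5 ± 5.05 RPKM in MOCK and 121 ± 2.42 RPKM in RRM2_OE. SLC2A1, the widespread glucose carrier GLUT1, stood at 92.1 ± 6.98 RPKM in MOCK and 94.6 ± 7.49 RPKM in RRM2_OE, and SLC2A3, the high-affinity glucose carrier GLUT3, at 77.5 ± 3.61 RPKM in MOCK and 79.7 ± 1.89 RPKM in RRM2_OE. Below them in MOCK came SLC45A3, a sugar carrier, at 66.4 ± 8.22 RPKM in MOCK and 66.2 ± 7.65 RPKM in RRM2_OE. Within this order, SLC25A5 and SLC25A6 did not differ beyond their spread in MOCK. Nor did SLC45A3 and the next genes in MOCK, the phosphate carrier SLC25A3 (65.6 RPKM) and the large neutral amino acid exchanger SLC7A5 (65.5 RPKM). SLC7A5 stood at 76.1 ± 12.1 RPKM in RRM2_OE and 70.8 RPKM over all 8 libraries, where it ranked above SLC45A3.

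**Figure D1:**
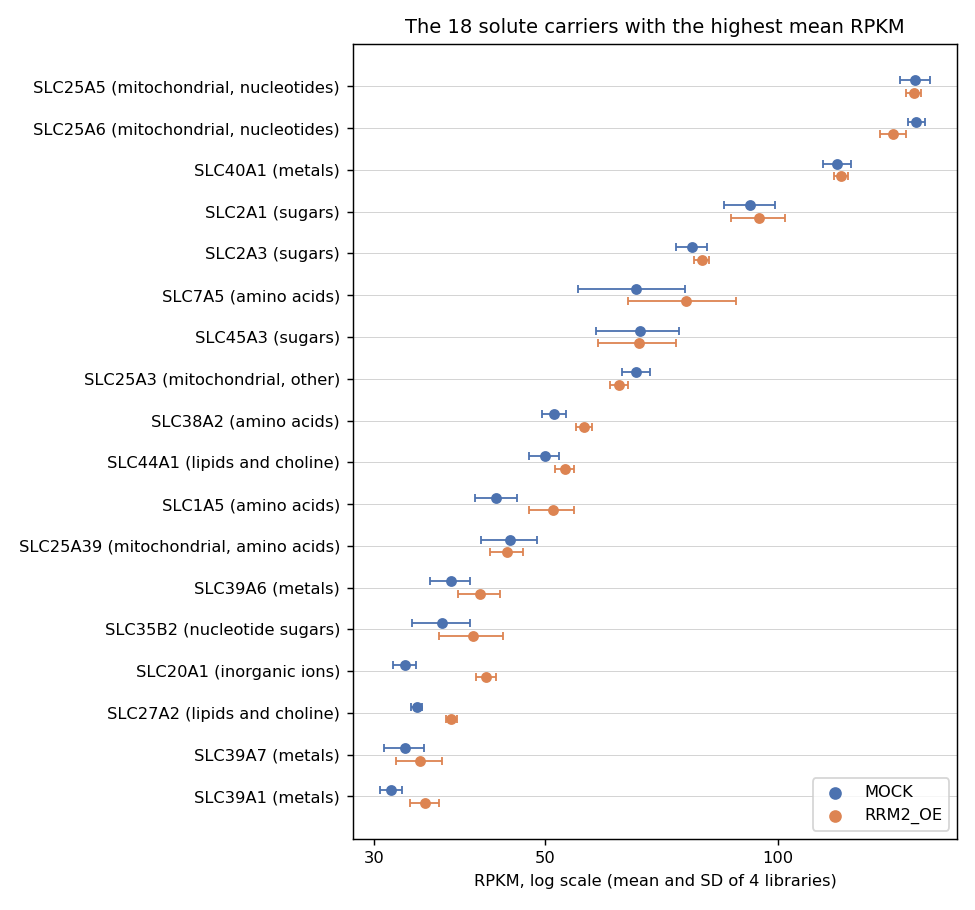
Level of the solute carriers with the highest mean RPKM (log axis), as the mean and SD of the 4 MOCK and the 4 RRM2_OE libraries, with what each gene carries in brackets. SLC25A5, SLC25A6 and SLC40A1 stand above 100 RPKM, SLC2A1 and SLC2A3 follow, and for most genes the bars of the groups overlap.

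Between the groups, 17 of the 179 solute carriers were higher in RRM2_OE and 15 were lower, at an adjusted p below 0.05 by quasi-likelihood test in edgeR, with p-values adjusted over all 15286 tested genes after Benjamini and Hochberg. That is 17.9% of the carriers, beside 12.8% called among all tested genes (7.41% higher and 5.42% lower) and 15.2% among genes with a mean count of 100 or more (8.35% and 6.83%), so the share lay near the background. The median log2 fold change of RRM2_OE over MOCK was 0.01 for the carriers and 0.00 for all tested genes. Changes were small: called rises ran from 0.14 to 0.40 and called falls from -0.59 to -0.19 on the log2 scale, 1 carrier passed 1.5-fold and 0 passed 2-fold, beside 138 and 15 of the 10641 tested genes with a mean count of 100 or more. The groups did not overlap in CPM for 28 carriers that were higher and 18 that were lower, or for 29 of the 32 called. Among genes with a mean count of 100 or more, 11.1% did not overlap in the higher direction and 11.0% in the lower. With the replicate number as a block, edgeR called 40 carriers higher and 29 lower, among them all 32, beside a background of 35.7% of genes with a mean count of 100 or more (17.6% higher and 18.1% lower). All 32 kept their direction in odd-numbered libraries alone and in even-numbered libraries alone. The calls came from these same libraries, and groups that do not overlap leave little room for another sign. The split is thus no separate test. Fewer carriers were called from 7 libraries: 8 higher and 9 lower without RRM2_OE library 3, 9 and 9 without RRM2_OE library 1, 10 and 9 without MOCK library 2, 10 and 8 without MOCK library 3, 10 and 10 without MOCK library 4, and 14 and 9 without RRM2_OE library 4. Of the 32, 14 stayed called on leaving out each of the 8 libraries in turn, and each of the others is given with the libraries that its call needed. In bulk RNA, fewer cells of a type and less RNA per cell cannot be told apart.

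**Figure D2:**
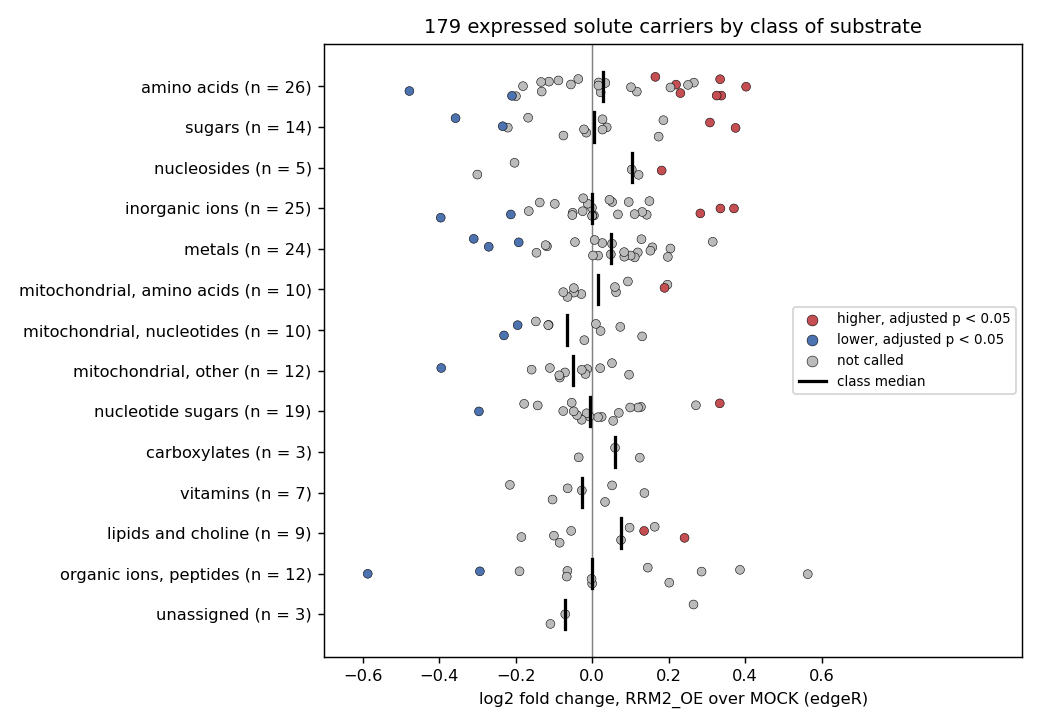
Log2 fold change of RRM2_OE over MOCK for each solute carrier, grouped by what it carries, with called genes (edgeR adjusted p below 0.05) coloured and the median of each group as a bar. Called amino acid carriers are mostly on the higher side, 7 against 2, and called metal carriers all on the lower side, 0 against 3, while the medians of both groups stay between 0.03 and 0.05.

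Of the amino acid carriers, 9 of 26 were called, or 34.6%: 7 were higher and 2 lower. Among all genes with a mean count of 100 or more, 15.2% were called. From 7 libraries the count of amino acid carriers was as low as 3 higher and 1 lower, without RRM2_OE library 1. It was 4 higher and 1 lower without MOCK library 4 or without RRM2_OE library 3, and unchanged without RRM2_OE library 4. Their median log2 fold change was 0.03, and 16 of the 26 lay above 0. With the replicate block 12 were higher and 5 lower, beside 17.6% and 18.1% of genes with a mean count of 100 or more. The carriers that rose were the heavy chain SLC3A2, the neutral amino acid carriers SLC1A4, SLC1A5 and SLC38A1, the cystine carrier SLC7A11, the glycine carrier SLC6A9 and the lysosomal exporter of cationic amino acids SLC66A1. Those that fell were SLC38A5, a glutamine and glycine carrier, and SLC36A4, a carrier of proline and tryptophan. The deposited counts come from stranded libraries, but whether counting used strand is not given, so reads of genes that overlap on opposite strands may be shared.

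For 4 that rose, a promoter window is shown to let their sequences be compared. Each window is the RefSeq sequence on GRCh38.p14 from 250 bases before to 50 after an annotated start, 5′ to 3′ on the gene's strand, and the capitals mark a match to TGATGNAAN on either strand, the letters of the C/EBP-ATF response element through which amino acid shortage is known to act on genes. SLC1A4 is shown at chr2:64989149-64989448 (plus strand), SLC3A2 at chr11:62881449-62881748 (plus strand), SLC38A1 at chr12:46266467-46266766 (minus strand) and SLC1A5 at chr19:46784765-46785064 (minus strand).
SLC1A4: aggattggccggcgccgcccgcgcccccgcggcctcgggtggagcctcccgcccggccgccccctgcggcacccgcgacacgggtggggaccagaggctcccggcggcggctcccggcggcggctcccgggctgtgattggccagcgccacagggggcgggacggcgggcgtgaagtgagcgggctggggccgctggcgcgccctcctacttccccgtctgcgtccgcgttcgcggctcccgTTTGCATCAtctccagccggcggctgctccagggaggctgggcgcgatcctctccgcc
SLC3A2: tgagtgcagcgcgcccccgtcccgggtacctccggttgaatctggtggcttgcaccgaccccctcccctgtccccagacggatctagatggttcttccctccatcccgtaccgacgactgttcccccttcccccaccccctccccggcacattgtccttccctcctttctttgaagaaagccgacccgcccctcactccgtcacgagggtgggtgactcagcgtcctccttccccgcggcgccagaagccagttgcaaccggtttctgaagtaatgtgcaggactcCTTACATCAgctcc
SLC38A1: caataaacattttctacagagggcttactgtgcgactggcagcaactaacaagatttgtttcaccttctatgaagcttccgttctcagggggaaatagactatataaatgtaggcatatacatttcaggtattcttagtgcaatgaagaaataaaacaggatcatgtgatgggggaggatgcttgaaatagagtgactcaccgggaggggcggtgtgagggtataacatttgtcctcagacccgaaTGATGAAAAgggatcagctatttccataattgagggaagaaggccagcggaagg
SLC1A5: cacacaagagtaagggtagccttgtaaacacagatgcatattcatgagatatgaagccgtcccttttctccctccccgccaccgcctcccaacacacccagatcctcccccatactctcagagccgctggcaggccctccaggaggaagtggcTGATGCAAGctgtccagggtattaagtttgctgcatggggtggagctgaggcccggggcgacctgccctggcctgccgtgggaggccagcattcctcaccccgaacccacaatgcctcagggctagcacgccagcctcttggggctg
The match begins at base -8 from the start in SLC1A4, 36 in SLC3A2, -4 in SLC38A1 and -97 in SLC1A5. In SLC1A4 and SLC3A2 it is read on the opposite strand, as TTTGCATCA and CTTACATCA on the strand printed. Of the 6 amino acid carriers called higher with a window in the RefSeq table, these 4 held a match (66.7%), as did 2 of 15 not called (13.3%) and 0 of 2 called lower. Counted by window, these were 4 of 12 (33.3%), 2 of 29 (6.9%) and 0 of 3. Genes were split by their call in these data, and the motif was chosen with earlier results known. The shares therefore only describe sequence and were not tested. Over carriers of every kind with a window, the share was 4 of 15 called higher (26.7%) and 2 of 11 called lower (18.2%), the latter being SLC2A5 and SLC39A11. Over all 35116 windows of this length, 3.61% held a match, or 4.45% of 27305 genes with at least 1 window, and 11 of the 143 solute carriers found in the table did (7.69%). Genes differ in their number of windows, with 2 for SLC1A4 and SLC38A1 and 3 for SLC3A2 and SLC1A5, and a match is a stretch of letters and not a bound site. Only the window with a match is shown for each. The other windows of these 4 genes held none, and which start the cells use was not measured. Called carriers with no window in the table were SLC17A9, SLC25A32, SLC25A37, SLC43A3, SLC4A1 and SLC7A11.

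SLC3A2 (ENSG00000168003, chr11:62623518-62656352 on the plus strand, hg19), the heavy chain that brings the SLC7 exchangers to the cell surface, measured 121, 128, 123 and 129.8 CPM in MOCK libraries 1 to 4 and 157, 163, 148 and 161 CPM in RRM2_OE libraries 1 to 4. Every RRM2_OE library stood above every MOCK library, and SLC3A2 rose by 0.33 ± 0.05 on the log2 scale (SE), 1.25-fold, with an edgeR adjusted p of 0.000645. SLC1A4 (ENSG00000115902, chr2:65215611-65250999 on the plus strand), a sodium-coupled carrier of alanine, serine and cysteine, measured 91.1, 82.5, 82.8 and 82.9 CPM in MOCK libraries 1 to 4 and 109.8, 106, 110.2 and 102 CPM in RRM2_OE libraries 1 to 4. MOCK library 1 was the highest of its group, yet the groups did not overlap, and SLC1A4 rose by 0.33 ± 0.05 on the log2 scale (SE), 1.26-fold, with an edgeR adjusted p of 0.000824. SLC38A1 (ENSG00000111371, chr12:46576846-46663800 on the minus strand), a sodium-coupled glutamine carrier, measured 160.2, 151, 165 and 161 CPM in MOCK libraries 1 to 4 and 192, 180.3, 192 and 178 CPM in RRM2_OE libraries 1 to 4. Its groups were separate as well, and SLC38A1 rose by 0.22 ± 0.05 on the log2 scale (SE), 1.16-fold, with an edgeR adjusted p of 0.00849. These 3 stayed called on leaving out any of the 8 libraries.

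SLC1A5 (ENSG00000105281, chr19:47278140-47291851 on the minus strand), the glutamine carrier ASCT2, measured 149, 134, 155 and 141 CPM in MOCK libraries 1 to 4 and 171, 164, 188 and 157 CPM in RRM2_OE libraries 1 to 4. Within each group the odd-numbered libraries were the higher ones, the lowest RRM2_OE library lay just above the highest MOCK library, and SLC1A5 rose by 0.23 ± 0.06 on the log2 scale (SE), 1.17-fold, with an edgeR adjusted p of 0.0286. SLC1A5 was no longer called on leaving out MOCK library 2 or 4 or RRM2_OE library 1 or 3 alone (adjusted p up to 0.0866, edgeR). SLC7A11 (ENSG00000151012, chr4:139085251-139163503 on the minus strand) measured 159, 169, 161 and 169 CPM in MOCK libraries 1 to 4 and 185, 188, 182 and 183 CPM in RRM2_OE libraries 1 to 4. The 4 RRM2_OE libraries lay within a span of a few CPM above all MOCK libraries, and SLC7A11 rose by 0.17 ± 0.04 on the log2 scale (SE), 1.12-fold, with an edgeR adjusted p of 0.0204. SLC7A11 was no longer called on leaving out MOCK library 1 or 3 or RRM2_OE library 1 or 2 alone (adjusted p up to 0.061, edgeR). Its antisense gene SLC7A11-AS1, whose reads can be told apart only if counting used strand, went from 16.5 to 17.3 CPM (log2 fold change 0.07, edgeR adjusted p = 0.715).

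The other 2 that rose, SLC66A1 and SLC6A9, had lower CPM. SLC66A1 measured 22.2, 24.3, 25.6 and 19.4 CPM in MOCK libraries 1 to 4 and 31.2, 25.9, 30.7 and 28.0 CPM in RRM2_OE libraries 1 to 4, without overlap, and rose by 0.34 ± 0.09 on the log2 scale (SE), 1.26-fold, with an edgeR adjusted p of 0.0319. SLC66A1 was no longer called on leaving out MOCK library 1 or 4 or RRM2_OE library 1, 3 or 4 alone (adjusted p up to 0.0888, edgeR). SLC6A9, the glycine carrier GlyT1, measured 12.4, 11.9, 9.76 and 9.24 CPM in MOCK libraries 1 to 4 and 15.7, 13.1, 15.5 and 13.1 CPM in RRM2_OE libraries 1 to 4, and the lowest RRM2_OE libraries lay close above the highest MOCK library. SLC6A9 rose by 0.40 ± 0.11 on the log2 scale (SE), 1.32-fold, with an edgeR adjusted p of 0.0364. SLC6A9 was no longer called on leaving out MOCK library 3 or 4 or RRM2_OE library 1 or 3 alone (adjusted p up to 0.1, edgeR). Among the amino acid carriers that fell, SLC38A5 (ENSG00000017483, chrX:48316920-48328644 on the minus strand) measured 23.8, 22.0, 20.6 and 22.8 CPM in MOCK libraries 1 to 4 and 16.8, 15.5, 15.8 and 16.0 CPM in RRM2_OE libraries 1 to 4. All RRM2_OE libraries were below all MOCK libraries, and SLC38A5 fell by 0.48 ± 0.07 on the log2 scale (SE), 0.718-fold, with an edgeR adjusted p of 0.00107, a call kept on leaving out any library. SLC36A4 measured 44.7, 50.7, 48.9 and 52.7 CPM in MOCK libraries 1 to 4 and 42.6, 41.5, 41.2 and 45.1 CPM in RRM2_OE libraries 1 to 4, overlapped between the groups through MOCK library 1 and RRM2_OE library 4, and fell by 0.21 ± 0.06 on the log2 scale (SE), 0.865-fold, with an edgeR adjusted p of 0.045. SLC36A4 was no longer called on leaving out MOCK library 2, 3 or 4 or RRM2_OE library 1, 2 or 3 alone (adjusted p up to 0.117, edgeR). DESeq2 did not call it (adjusted p = 0.0518). SLC6A9 shares bases with CCDC24 on the opposite strand, which was not called (edgeR adjusted p = 0.663).

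**Figure D3:**
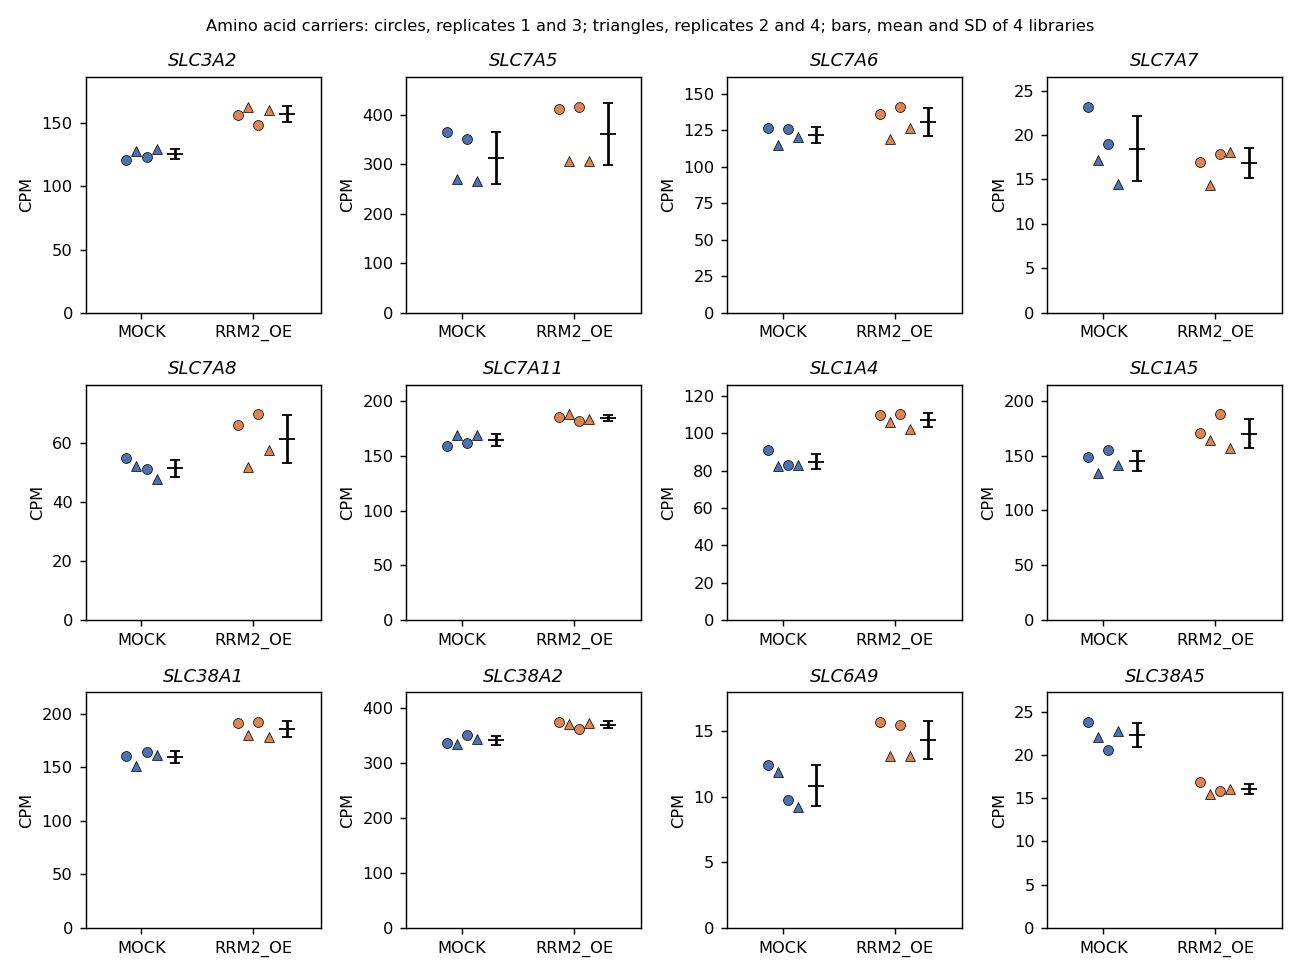
Level of 12 amino acid carriers in each library in TMM-scaled CPM, with MOCK and RRM2_OE libraries side by side, circles for replicates 1 and 3, triangles for 2 and 4, and bars for the mean and SD of 4 libraries. SLC3A2, SLC1A4 and SLC38A1 show separate groups, while in SLC7A5 the odd-numbered libraries of each group stand above the even-numbered ones.

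Of the light chains that pair with SLC3A2, SLC7A11 was called and SLC7A5 was not, and the difference between them was not tested. SLC7A5, the large neutral amino acid exchanger LAT1 and the partner of SLC3A2 in essential amino acid uptake, measured 365, 270.4, 352 and 265 CPM in MOCK libraries 1 to 4 and 412, 308, 417 and 307 CPM in RRM2_OE libraries 1 to 4. In both groups libraries 1 and 3 stood above libraries 2 and 4, so the groups overlapped, with a log2 fold change of 0.20 ± 0.14 (SE) and an edgeR adjusted p of 0.415. With the replicate block SLC7A5 was called higher (adjusted p = 2.91e-07, edgeR). The log2 fold change was 0.21 in odd-numbered libraries alone and 0.20 in even-numbered libraries alone, against 0.43 between odd-numbered and even-numbered libraries. SLC38A2, a glutamine and alanine carrier whose level is known to respond to amino acid supply, measured 336, 334, 351 and 343 CPM in MOCK libraries 1 to 4 and 375, 370.5, 361 and 372 CPM in RRM2_OE libraries 1 to 4. Its groups did not overlap, with a log2 fold change of 0.12 ± 0.04 (SE) and an edgeR adjusted p of 0.08, and the block gave an adjusted p of 0.00106 (edgeR). Of 10 tested genes of cysteine and glutathione metabolism, 4 were called, beside 12.8% of all tested genes. CBS (log2 fold change 1.19), GGT1 (0.58) and CHAC1 (0.81) rose and GGT5 fell by 0.39. CBS and CHAC1 averaged only 98.5 and 58.375 counts. The synthesis genes GCLC, GCLM and GSS were not called, nor were GSR, GPX4 and CTH. The summed level of the 10 was 594 to 607 CPM in the MOCK libraries and 629.6 to 638 CPM in the RRM2_OE libraries.

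Sugar carriers showed calls in both directions and none in the main glucose carriers. Of the 14, 2 rose and 2 fell (28.6% called, beside 15.2% of genes with a mean count of 100 or more). The median log2 fold change of the 14 was 0.01. SLC2A1 measured 411, 358, 423 and 368 CPM in MOCK libraries 1 to 4 and 424, 364, 434 and 369 CPM in RRM2_OE libraries 1 to 4. Libraries 1 and 3 were the higher ones in both groups, the groups overlapped, and the result was a log2 fold change of 0.03 ± 0.07 (SE) and an edgeR adjusted p of 0.865. SLC2A3 measured 461, 507, 481 and 472 CPM in MOCK libraries 1 to 4 and 502, 496, 489 and 471 CPM in RRM2_OE libraries 1 to 4, again with overlapping groups, and gave a log2 fold change of 0.03 ± 0.05 (SE) and an edgeR adjusted p of 0.768. SLC45A3 gave a log2 fold change of -0.02, with an edgeR adjusted p of 0.952.

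The sugar carriers that rose act inside the cell. SLC37A1 (ENSG00000160190, chr21:43916118-44001550 on the plus strand), a glucose-6-phosphate and phosphate exchanger of the endoplasmic reticulum, measured 37.2, 40.9, 38.5 and 33.0 CPM in MOCK libraries 1 to 4 and 47.0, 44.5, 47.1 and 46.5 CPM in RRM2_OE libraries 1 to 4. Its groups did not overlap, and SLC37A1 rose by 0.31 ± 0.07 on the log2 scale (SE), 1.24-fold, with an edgeR adjusted p of 0.0101, which held on leaving out any library. SLC2A6, the intracellular carrier GLUT6, measured 23.2, 17.1, 22.1 and 22.6 CPM in MOCK libraries 1 to 4 and 31.4, 24.3, 29.6 and 25.0 CPM in RRM2_OE libraries 1 to 4, with the lowest RRM2_OE library just above the highest MOCK library. SLC2A6 rose by 0.38 ± 0.11 on the log2 scale (SE), 1.30-fold, with an edgeR adjusted p of 0.0421. SLC2A6 was no longer called on leaving out MOCK library 2, 3 or 4 or RRM2_OE library 1 or 3 alone (adjusted p up to 0.117, edgeR). SLC2A5, the fructose carrier GLUT5, measured 91.6, 82.0, 98.1 and 88.1 CPM in MOCK libraries 1 to 4 and 80.0, 74.3, 82.2 and 69.6 CPM in RRM2_OE libraries 1 to 4, overlapping through MOCK library 2 and RRM2_OE library 3. SLC2A5 fell by 0.23 ± 0.07 on the log2 scale (SE), 0.850-fold, with an edgeR adjusted p of 0.0362. SLC2A5 was no longer called on leaving out MOCK library 1, 3 or 4 or RRM2_OE library 1, 2 or 4 alone (adjusted p up to 0.107, edgeR).

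SLC5A2 (SGLT2), known as a sodium-coupled glucose carrier of the kidney, measured 47.0, 57.9, 45.9 and 55.8 CPM in MOCK libraries 1 to 4 and 37.3, 44.9, 34.9 and 44.1 CPM in RRM2_OE libraries 1 to 4. Even-numbered libraries were higher than odd-numbered ones in each group, the groups did not overlap, and SLC5A2 fell by 0.36 ± 0.10 on the log2 scale (SE), 0.781-fold, with an edgeR adjusted p of 0.0357. SLC5A2 was no longer called on leaving out MOCK library 2 or 4 or RRM2_OE library 1 or 3 alone (adjusted p up to 0.0956, edgeR). SLC5A2 overlaps RUSF1 on the opposite strand, which also fell, from 84.5 to 66.2 CPM (log2 fold change -0.35, edgeR adjusted p = 0.00596). In RUSF1 the odd-numbered libraries were the higher ones in each group. Its log2 difference of odd over even was 0.18, against -0.30 for SLC5A2. Whether reads of RUSF1 entered the SLC5A2 count was not tested.

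Carriers of nucleosides and nucleobases, which feed the salvage route, had 1 call: of the 5, 1 rose and 0 fell. That is 20.0%, beside 15.2% of genes with a mean count of 100 or more. Under the block 2 were higher and 1 lower, beside 17.6% and 18.1% of genes with that mean count. The median log2 fold change of the 5 was 0.10, and it was 0.02 without MOCK library 4 and 0.03 without RRM2_OE library 3. SLC43A3 (ENSG00000134802, chr11:57174427-57195053 on the minus strand), a purine nucleobase carrier, measured 61.4, 62.4, 66.8 and 65.0 CPM in MOCK libraries 1 to 4 and 72.8, 75.6, 72.3 and 69.4 CPM in RRM2_OE libraries 1 to 4. All RRM2_OE libraries lay above all MOCK libraries, and SLC43A3 rose by 0.18 ± 0.05 on the log2 scale (SE), 1.13-fold, with an edgeR adjusted p of 0.0317. SLC43A3 was no longer called on leaving out MOCK library 1, 2 or 4 or RRM2_OE library 1, 2 or 3 alone (adjusted p up to 0.0877, edgeR). It was not called by DESeq2 (adjusted p = 0.0526) or by edgeR with no filter on low counts (adjusted p = 0.0618). SLC29A1 (ENT1), the main equilibrative nucleoside carrier and the entry route of nucleoside drugs such as cytarabine, measured 96.8, 84.8, 91.9 and 84.7 CPM in MOCK libraries 1 to 4 and 100.2, 90.8, 107 and 87.4 CPM in RRM2_OE libraries 1 to 4. Its groups overlapped, with a log2 fold change of 0.10 ± 0.07 (SE) and an edgeR adjusted p of 0.375, and the block called it higher (adjusted p = 0.0421, edgeR).

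SLC29A2 (ENT2) measured 15.6, 11.7, 12.3 and 12.3 CPM in MOCK libraries 1 to 4 and 12.6, 10.5, 10.7 and 8.38 CPM in RRM2_OE libraries 1 to 4. MOCK library 1 was well above the rest of its group, with a log2 fold change of -0.30 ± 0.13 (SE) and an edgeR adjusted p of 0.16, and the block called it lower (adjusted p = 0.0157, edgeR). SLC28A3, a sodium-coupled concentrating nucleoside carrier, measured 16.3, 16.1, 14.7 and 14.4 CPM in MOCK libraries 1 to 4 and 13.7, 13.8, 13.3 and 12.7 CPM in RRM2_OE libraries 1 to 4. Its groups did not overlap, yet it was not called, with a log2 fold change of -0.20 ± 0.08 (SE) and an edgeR adjusted p of 0.12. The fifth, SLC29A3 of lysosomes and mitochondria, gave a log2 fold change of 0.12, with an edgeR adjusted p of 0.664. Pyrimidine nucleotide carriers of mitochondria were measured beside them: SLC25A33, under the count limit, was at 6.96 CPM in MOCK and 6.94 CPM in RRM2_OE (log2 fold change 0.00, edgeR adjusted p = 0.991), and SLC25A36 fell.

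SLC25A36 (ENSG00000114120, chr3:140660672-140698775 on the plus strand) measured 147, 145, 146 and 149 CPM in MOCK libraries 1 to 4 and 129, 131, 126 and 127 CPM in RRM2_OE libraries 1 to 4. The 4 values of each group lay close together and far from the other group, and SLC25A36 fell by 0.19 ± 0.04 on the log2 scale (SE), 0.874-fold, with an edgeR adjusted p of 0.00678, held on leaving out any library. Mitochondrial carriers as a whole had 1 call higher and 3 lower among 32. That is 12.5%, beside 15.2% of genes with a mean count of 100 or more. The median log2 fold change of the 32 was -0.03. SLC25A37 (mitoferrin-1, ENSG00000147454, chr8:23386318-23432976 on the plus strand), which brings iron into mitochondria for haem, measured 153, 138, 154 and 142 CPM in MOCK libraries 1 to 4 and 118, 109, 114 and 106 CPM in RRM2_OE libraries 1 to 4. Its groups were far apart, and SLC25A37 fell by 0.39 ± 0.05 on the log2 scale (SE), 0.761-fold, with an edgeR adjusted p of 0.000398, held on leaving out any library. SLC25A32, known for folate and flavin transport, measured 24.6, 25.8, 29.3 and 27.5 CPM in MOCK libraries 1 to 4 and 23.2, 22.6, 22.7 and 22.9 CPM in RRM2_OE libraries 1 to 4 and fell by 0.23 ± 0.07 on the log2 scale (SE), 0.852-fold, with an edgeR adjusted p of 0.0488. SLC25A32 was no longer called on leaving out MOCK library 2, 3 or 4 or RRM2_OE library 1, 2, 3 or 4 alone (adjusted p up to 0.132, edgeR). SLC25A40, a carrier of glutathione into mitochondria, measured 51.0, 55.3, 52.0 and 55.3 CPM in MOCK libraries 1 to 4 and 57.5, 60.4, 63.8 and 61.7 CPM in RRM2_OE libraries 1 to 4 and rose by 0.19 ± 0.05 on the log2 scale (SE), 1.14-fold, with an edgeR adjusted p of 0.0371. SLC25A40 was no longer called on leaving out MOCK library 1, 2, 3 or 4 or RRM2_OE library 2, 3 or 4 alone (adjusted p up to 0.106, edgeR). DESeq2 called neither (adjusted p = 0.0792 for SLC25A32 and 0.0638 for SLC25A40), nor did edgeR with no filter on low counts (0.0641 and 0.0643). SLC25A32 shares bases with DCAF13 and SLC25A40 with DBF4, and neither neighbour was called (edgeR adjusted p = 0.473 and 0.524).

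The leading ADP/ATP carriers were not called: SLC25A5 had a log2 fold change of -0.02 ± 0.04 (SE) and an edgeR adjusted p of 0.82, and SLC25A6 a log2 fold change of -0.11 ± 0.04 (SE) and an edgeR adjusted p of 0.121, with SLC25A6 lower under the block (adjusted p = 0.00148, edgeR). SLC25A44, a mitochondrial branched-chain amino acid carrier, measured 46.7, 45.9, 42.2 and 41.0 CPM in MOCK libraries 1 to 4 and 52.3, 44.7, 51.8 and 52.7 CPM in RRM2_OE libraries 1 to 4. RRM2_OE library 2 lay below the other 3 of its group, with a log2 fold change of 0.20 ± 0.07 (SE) and an edgeR adjusted p of 0.0816, and the block called it higher (adjusted p = 0.00696, edgeR). SLC25A43, a mitochondrial carrier of unsettled substrate, gave a log2 fold change of -0.16, with an edgeR adjusted p of 0.199.

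Ion carriers had 3 calls higher and 2 lower among 25. That is 20.0%, beside 15.2% of genes with a mean count of 100 or more. The median log2 fold change of the ion carriers was 0.00. The smallest adjusted p belonged to a phosphate carrier that rose and a sulphate carrier that fell. SLC20A1 (ENSG00000144136, chr2:113403434-113421404 on the plus strand), the sodium-coupled phosphate carrier PiT-1, measured 189, 177, 191 and 182 CPM in MOCK libraries 1 to 4 and 239.6, 236, 226 and 231 CPM in RRM2_OE libraries 1 to 4. The groups were well separated, and SLC20A1 rose by 0.34 ± 0.04 on the log2 scale (SE), 1.26-fold, with an edgeR adjusted p of 0.000336. SLC26A2 (ENSG00000155850, chr5:149340300-149373018 on the plus strand), a sulphate carrier needed for sulphation of proteoglycans, measured 73.6, 71.8, 79.3 and 77.4 CPM in MOCK libraries 1 to 4 and 57.7, 58.4, 52.7 and 60.8 CPM in RRM2_OE libraries 1 to 4. Every RRM2_OE library lay below every MOCK library, and SLC26A2 fell by 0.40 ± 0.06 on the log2 scale (SE), 0.760-fold, with an edgeR adjusted p of 0.000675. Both calls stayed on leaving out any library, and TIGD6, which overlaps SLC26A2 on the opposite strand, was not called (edgeR adjusted p = 0.839).

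The chloride carriers SLC12A4 and SLC12A2 rose. SLC12A4 (KCC1), which lets potassium and chloride out, measured 18.5, 20.9, 23.0 and 23.3 CPM in MOCK libraries 1 to 4 and 27.6, 26.5, 28.3 and 28.5 CPM in RRM2_OE libraries 1 to 4. All RRM2_OE libraries were the higher ones, and SLC12A4 rose by 0.37 ± 0.08 on the log2 scale (SE), 1.29-fold, with an edgeR adjusted p of 0.00947, held on leaving out any library. Its neighbour on the same strand, LCAT, which shares bases with it, was at 3.53 CPM in MOCK and 4.82 CPM in RRM2_OE and was not called (edgeR adjusted p = 0.0635). SLC12A2 (NKCC1), which takes up sodium, potassium and chloride, measured 27.6, 28.9, 26.2 and 30.5 CPM in MOCK libraries 1 to 4 and 30.2, 36.7, 32.7 and 38.3 CPM in RRM2_OE libraries 1 to 4, with RRM2_OE library 1 below MOCK library 4. SLC12A2 rose by 0.28 ± 0.08 on the log2 scale (SE), 1.22-fold, with an edgeR adjusted p of 0.0416. SLC12A2 was no longer called on leaving out MOCK library 1, 2 or 3 or RRM2_OE library 2, 3 or 4 alone (adjusted p up to 0.116, edgeR).

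SLC4A1 (band 3, ENSG00000004939, chr17:42325753-42345509 on the minus strand), the anion exchanger of the red cell membrane, measured 87.9, 87.3, 97.6 and 80.8 CPM in MOCK libraries 1 to 4 and 80.2, 74.4, 79.0 and 71.5 CPM in RRM2_OE libraries 1 to 4. MOCK library 3 was the highest and RRM2_OE library 4 the lowest, the groups were just apart, and SLC4A1 fell by 0.21 ± 0.06 on the log2 scale (SE), 0.863-fold, with an edgeR adjusted p of 0.0408. SLC4A1 was no longer called on leaving out MOCK library 1, 2 or 3 or RRM2_OE library 2, 3 or 4 alone (adjusted p up to 0.116, edgeR). Red cell markers are given beside SLC4A1 and SLC25A37. Of 12 tested, 5 fell (ALAS2, HBG2, HBG1, AHSP and GYPB) and 0 rose, beside 5.42% called lower among all tested genes. AHSP and GYPB averaged only 18.125 and 10.375 counts. The median log2 fold change of the 12 was -0.49. Under the block 9 fell, beside 18.1% of genes with a mean count of 100 or more. The red cell regulators KLF1 (log2 fold change -0.19) and EPOR (-0.19) were not called (edgeR adjusted p = 0.0617 and 0.242). Under the block both were called lower (adjusted p = 0.00853 and 0.0188, edgeR). HBB and HBA1 were not called, with or without the block (adjusted p = 0.102 and 0.0896 with it, edgeR). No marker of the list was at 0. The part of these markers in the changes of SLC4A1 and SLC25A37 was not tested.

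Metal carriers had 0 calls higher and 3 lower among 24 (12.5%), though 17 of the 24 had a log2 fold change above 0 and the median was 0.05. Among genes with a mean count of 100 or more, 15.2% were called. Under the block 6 metal carriers were higher and 4 lower, beside 17.6% and 18.1% of genes with that mean count. SLC39A10 (ENSG00000196950, chr2:196440701-196602426 on the plus strand), a zinc importer of the plasma membrane, measured 62.8, 65.1, 64.2 and 65.1 CPM in MOCK libraries 1 to 4 and 51.7, 51.4, 49.6 and 54.9 CPM in RRM2_OE libraries 1 to 4. The groups lay far apart, and SLC39A10 fell by 0.31 ± 0.05 on the log2 scale (SE), 0.807-fold, with an edgeR adjusted p of 0.0016, held on leaving out any library. SLC41A3, of a magnesium carrier family, measured 23.7, 21.0, 23.7 and 21.0 CPM in MOCK libraries 1 to 4 and 18.3, 17.8, 19.4 and 18.7 CPM in RRM2_OE libraries 1 to 4 without overlap and fell by 0.27 ± 0.07 on the log2 scale (SE), 0.829-fold, with an edgeR adjusted p of 0.0321. SLC41A3 was no longer called on leaving out MOCK library 1 or 3 or RRM2_OE library 1, 2 or 4 alone (adjusted p up to 0.0871, edgeR). DESeq2 did not call it (adjusted p = 0.0502). SLC39A11, a zinc carrier, measured 108, 121, 119 and 119 CPM in MOCK libraries 1 to 4 and 104, 108, 96.9 and 99.8 CPM in RRM2_OE libraries 1 to 4. MOCK library 1 was apart from its group and nearest to the RRM2_OE libraries, and SLC39A11 fell by 0.19 ± 0.05 on the log2 scale (SE), 0.875-fold, with an edgeR adjusted p of 0.03. SLC39A11 was no longer called on leaving out MOCK library 2, 3 or 4 or RRM2_OE library 1, 3 or 4 alone (adjusted p up to 0.083, edgeR).

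The iron carriers SLC40A1 and SLC11A1 were not called. SLC40A1 (ferroportin) measured 513, 504, 535 and 531 CPM in MOCK libraries 1 to 4 and 523, 526, 515 and 522 CPM in RRM2_OE libraries 1 to 4, with overlapping groups and a log2 fold change of 0.00 ± 0.04 (SE) and an edgeR adjusted p of 0.98. SLC11A1 (NRAMP1), an iron and manganese carrier of phagosomes, measured 38.9, 31.0, 35.7 and 28.3 CPM in MOCK libraries 1 to 4 and 45.4, 36.1, 47.5 and 37.6 CPM in RRM2_OE libraries 1 to 4. Odd-numbered libraries were the higher ones in each group, with a log2 fold change of 0.32 ± 0.11 (SE) and an edgeR adjusted p of 0.0942, and the block called it higher (adjusted p = 4.85e-05, edgeR). SLC39A6, a zinc importer and the metal carrier next to SLC40A1 in RPKM, stood at 37.7 ± 2.21 RPKM in MOCK and 41.1 ± 2.57 RPKM in RRM2_OE and gave a log2 fold change of 0.11, with an edgeR adjusted p of 0.194. Of 10 tested genes of iron storage, uptake and sensing, HMOX1 (log2 fold change 0.23) and FTH1 (0.24) rose and 0 fell, beside 12.8% called among all tested genes. TFRC, FTL, IREB2 and ACO1 were among those not called. Under the block 1 of the 10 was higher and 4 lower, beside 17.6% and 18.1% of genes with a mean count of 100 or more. There FTH1 was not called (adjusted p = 0.0948, edgeR) and TFRC was called lower (adjusted p = 0.00745, edgeR).

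**Figure D4:**
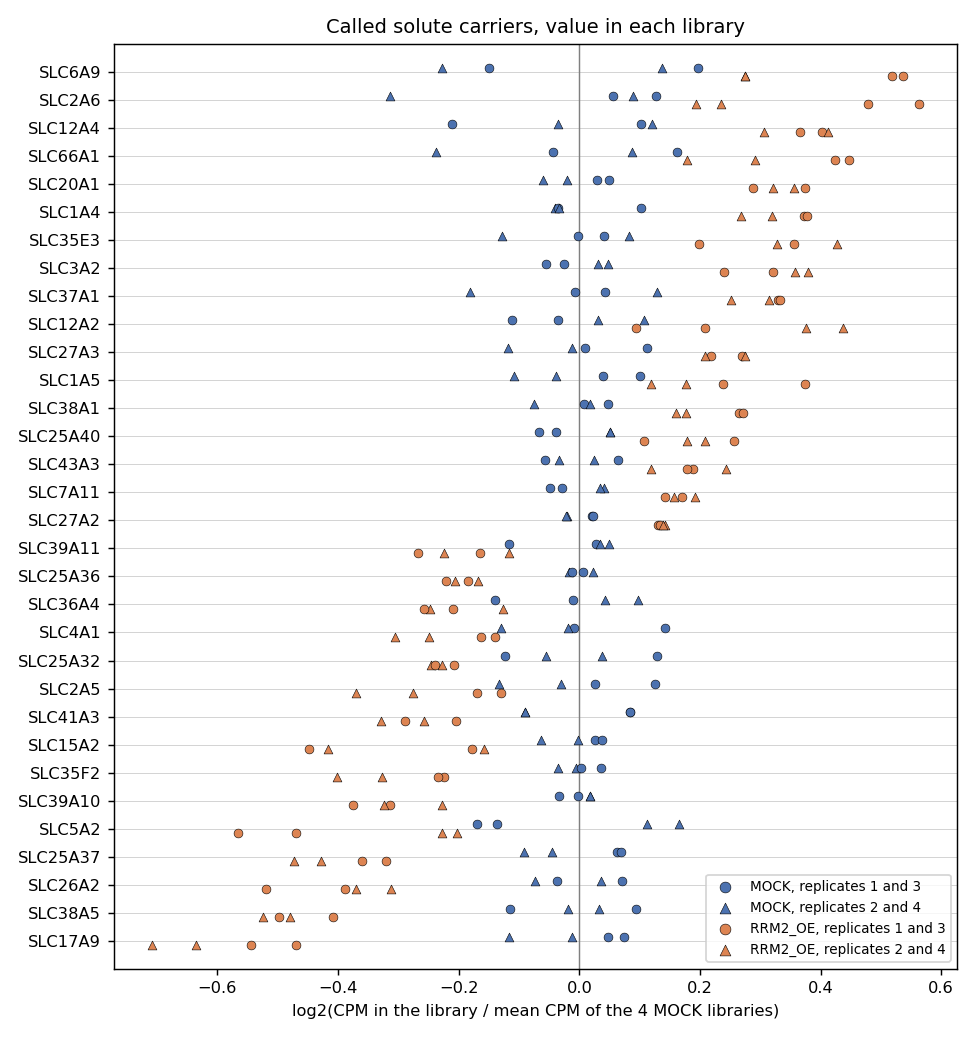
Level of each of the 32 called solute carriers in each of the 8 libraries, as the log2 ratio of its CPM to the mean of the 4 MOCK libraries (circles, replicates 1 and 3, and triangles, replicates 2 and 4). The 17 carriers that rose and the 15 that fell lie on their side of the MOCK mean in all 4 RRM2_OE libraries, and SLC17A9 shows the largest fall.

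The remaining calls fell in 3 groups, with 2 each among the 12 organic ion, 19 nucleotide sugar and 9 lipid carriers. The share called was 15.2% among genes with a mean count of 100 or more. SLC17A9 (ENSG00000101194, chr20:61584052-61599949 on the plus strand), the vesicular nucleotide carrier that loads ATP into secretory vesicles, measured 78.2, 75.0, 79.6 and 69.8 CPM in MOCK libraries 1 to 4 and 54.6, 48.7, 51.9 and 46.3 CPM in RRM2_OE libraries 1 to 4. All RRM2_OE libraries were far below all MOCK libraries, and SLC17A9 fell by 0.59 ± 0.06 on the log2 scale (SE), 0.666-fold, with an edgeR adjusted p of 9.76e-05, which was the largest change of any of the 32 and held on leaving out any library. SLC15A2 (PEPT2), a proton-coupled peptide carrier, measured 25.0, 24.5, 25.2 and 23.5 CPM in MOCK libraries 1 to 4 and 21.7, 22.0, 18.0 and 18.4 CPM in RRM2_OE libraries 1 to 4 without overlap and fell by 0.29 ± 0.08 on the log2 scale (SE), 0.816-fold, with an edgeR adjusted p of 0.0325. SLC15A2 was no longer called on leaving out MOCK library 1, 2 or 3 or RRM2_OE library 3 or 4 alone (adjusted p up to 0.0891, edgeR). SLC35F2, a relative of the nucleotide sugar carriers, measured 30.9, 30.0, 30.2 and 29.4 CPM in MOCK libraries 1 to 4 and 25.8, 24.0, 25.6 and 22.8 CPM in RRM2_OE libraries 1 to 4 and fell by 0.30 ± 0.06 on the log2 scale (SE), 0.815-fold, with an edgeR adjusted p of 0.00969. SLC35E3, another relative, measured 17.2, 17.7, 16.7 and 15.3 CPM in MOCK libraries 1 to 4 and 21.4, 21.0, 19.2 and 22.5 CPM in RRM2_OE libraries 1 to 4 and rose by 0.33 ± 0.08 on the log2 scale (SE), 1.26-fold, with an edgeR adjusted p of 0.0154. SLC35F2 and SLC35E3 had separate groups, and both calls held on leaving out any library. SLC6A12, a betaine and GABA carrier, had the highest log2 fold change of all 179 without being called: it measured 12.1, 7.25, 8.60 and 7.99 CPM in MOCK libraries 1 to 4 and 14.9, 11.9, 15.9 and 10.4 CPM in RRM2_OE libraries 1 to 4, with a log2 fold change of 0.56 ± 0.17 (SE) and an edgeR adjusted p of 0.0512. Odd-numbered libraries were the higher ones in each group, and the block called SLC6A12 higher (adjusted p = 7.62e-05, edgeR).

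Of the lipid carriers, 2 of 9 rose and 0 fell, beside 8.35% and 6.83% of genes with a mean count of 100 or more. SLC27A3, an acyl-CoA synthetase of the fatty acid transport family, measured 27.7, 25.4, 25.8 and 23.6 CPM in MOCK libraries 1 to 4 and 29.8, 29.6, 30.9 and 31.0 CPM in RRM2_OE libraries 1 to 4 without overlap and rose by 0.24 ± 0.07 on the log2 scale (SE), 1.18-fold, with an edgeR adjusted p of 0.0307. SLC27A3 was no longer called on leaving out MOCK library 2, 3 or 4 or RRM2_OE library 1, 2, 3 or 4 alone (adjusted p up to 0.0867, edgeR). SLC27A2, its very long chain relative, measured 97.6, 94.8, 97.7 and 94.7 CPM in MOCK libraries 1 to 4 and 105, 106, 106 and 106 CPM in RRM2_OE libraries 1 to 4. The RRM2_OE values lay within about a CPM of each other, above all MOCK values, and SLC27A2 rose by 0.14 ± 0.04 on the log2 scale (SE), 1.10-fold, with an edgeR adjusted p of 0.0429, the smallest called rise. SLC27A2 was no longer called on leaving out any single library (adjusted p up to 0.107, edgeR). Neither was called by DESeq2 (adjusted p = 0.0588 for SLC27A3 and 0.0905 for SLC27A2) or by edgeR with no filter on low counts (0.0546 and 0.174). SLC27A2 overlaps ATP8B4 on the opposite strand, which was at 364 CPM in MOCK and 344 CPM in RRM2_OE and was not called (log2 fold change -0.08, edgeR adjusted p = 0.405).

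Lactate and vitamin carriers had 0 calls among 3 and 7 genes. SLC16A3 (MCT4), the lactate exporter, was not called (log2 fold change 0.12, edgeR adjusted p = 0.0916) and was called higher under the block (adjusted p = 0.000941, edgeR). SLC16A1 (MCT1) gave a log2 fold change of 0.06, with an edgeR adjusted p of 0.613. SLC19A1, the reduced folate carrier and the entry route of methotrexate, was not called (log2 fold change -0.21, edgeR adjusted p = 0.248) and was lower under the block (adjusted p = 0.0125, edgeR). The thiamine carrier SLC19A2 gave a log2 fold change of -0.10, with an edgeR adjusted p of 0.567. Of the 3 unassigned genes 0 were called, among them SLC49A4 (log2 fold change 0.27, edgeR adjusted p = 0.231) and SLC66A3 (log2 fold change -0.11, edgeR adjusted p = 0.47). Of carriers and partners outside the SLC symbol rule, 41 were tested, with 5 higher and 1 lower (6 called, beside the 12.8% of all tested genes). Under the block 16 were higher and 2 lower, beside 17.6% and 18.1% of genes with a mean count of 100 or more. MFSD6 (log2 fold change 0.40) and the sodium pump subunit ATP1B1 (0.54) rose, and SPNS2, the sphingosine 1-phosphate exporter, fell by 0.77.

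Many carriers differed between odd-numbered and even-numbered libraries, mostly in 1 direction. In edgeR's test of odd against even libraries with the group as a term, 63 of the 179 carriers were higher in the odd-numbered libraries and 10 lower, beside 39.9% called among genes with a mean count of 100 or more (19.8% higher and 20.0% lower). Amino acid carriers had 14 higher and 1 lower of 26, and sugar carriers 7 higher and 1 lower of 14. For SLC7A5 the log2 difference of odd over even was 0.43, for SLC11A1 0.33 and for SLC2A1 0.21. SLC3A2 and SLC20A1, which rose in RRM2_OE, showed -0.08 and 0.03. The labels do not say what separates odd from even numbers, and since each group holds 2 of each, the difference is balanced between the groups.

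**Figure D5:**
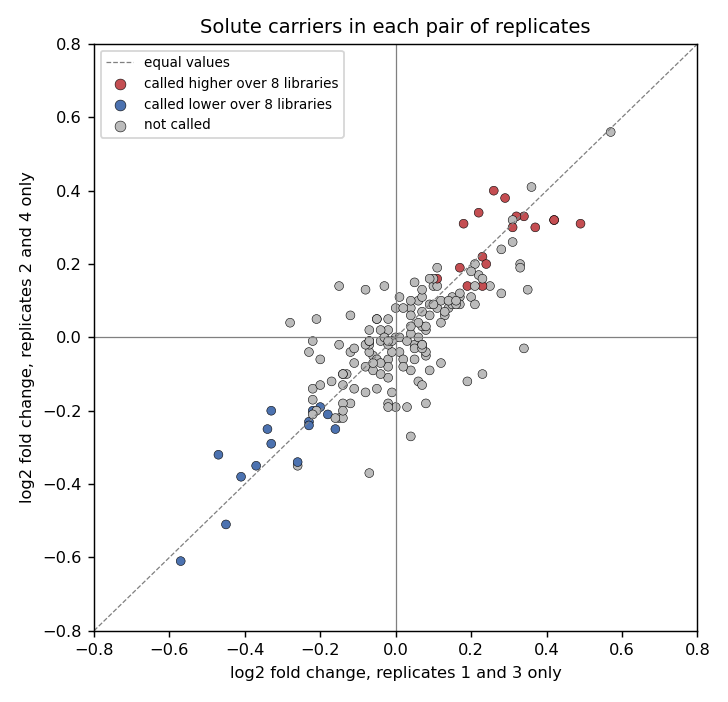
Log2 fold change of RRM2_OE over MOCK for each solute carrier in replicates 1 and 3 only (horizontal axis) and in replicates 2 and 4 only (vertical axis), 1 point per gene, with equal values on the dashed line. The called carriers, coloured, lie in the lower left or the upper right, and so all 32 have the same sign in both. The calls were made on these same libraries, so the shared sign is no separate test.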

How the data were processed

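The 8 poly(A) RNA libraries, 4 MOCK and 4 RRM2_OE, were grouped and numbered by the sample labels. The authors deposited whole-number counts per Ensembl gene and, in a second table, RPKM values, which were recomputed from the counts, column totals and exon lengths to within 4.73e-06 (per the file headers). Per the submitters' processing notes, hg19 (GRCh37), TopHat2, HTSeq 0.11.2 and bcl2fastq 2.18.0.12 were used, in roles they do not give. Neither the annotation nor any strand setting is given. Gene coordinates are hg19, and promoter windows are RefSeq on GRCh38.p14.

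Counts were tested with edgeR 4.0.16 (R 4.3.3): default filterByExpr, TMM factors, robust quasi-likelihood fit on all 15286 genes kept, Benjamini-Hochberg adjustment, and a call at an adjusted p below 0.05. The script was tested on simulated data. CPM are counts per 1000000 of the TMM-scaled library total, and counts per gene limit the precision of low genes. Alternatives were DESeq2 1.42.0, limma-voom (limma 3.58.1), RLE and upper-quartile factors, other low-count filters, log2(RPKM + 1) and log2(RPKM + 0.1) in limma, a stricter threshold, a replicate block, an odd/even term and leaving out each library.

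Same-numbered libraries deviated together (correlations of deviations from the group means 0.25, 0.23, 0.22 and 0.23). Libraries of the same parity and another number correlated as much (0.23 to 0.29, and -0.28 to -0.21 across parity). The values thus show a split by parity and no pairing by number beyond it. The replicate block is given as an alternative fit only.

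The members, classes, lists and motif were chosen with earlier results of these data known. The genes named were the 12 called carriers with the highest and the 12 with the lowest log2 fold change, those of smallest adjusted p and highest RPKM in each class, 14 carriers of known roles, the genes next to the count limit, and the 3 called genes of smallest adjusted p in each other list. SLC38A1, SLC36A4, SLC6A12, SLC29A3, SLC45A3, SLC25A3, SLC25A5, SLC25A6, overlapping neighbours and further list genes were added after their values were seen. Some results that the rule selects are not reported here.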

Additional observations from a re-analysis of the deposited data

Results flagged for a closer look

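In 5 of 110 groups of 4 libraries, 1 library's gap to the nearest of the others, as a share of the group's range, was above Dixon's 95% critical value of 0.829. Chance flags about 1 in 20 groups. SLC1A4 was at 91.1 CPM in MOCK library 1, against 82.5 to 82.9 CPM in the other MOCK libraries, a share of 0.956. SLC39A11 was at 107.5 CPM in MOCK library 1, against 118.8 to 120.6 CPM (0.864). SLC29A2 was at 15.6 CPM in MOCK library 1, against 11.7 to 12.3 CPM (0.842). SLC25A44 was at 44.7 CPM in RRM2_OE library 2, against 51.8 to 52.7 CPM (0.893). SLC22A4, just under the count limit, was at 6.82 CPM in RRM2_OE library 4, against 9.10 to 9.32 CPM (0.912). Of these genes SLC1A4 and SLC39A11 were called between the groups. SLC1A4 stayed called without MOCK library 1, and so did SLC39A11.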

How the results depend on the processing

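The counts of carriers called higher and lower, 17 and 15 in the edgeR fit, changed with terms for the replicates. With the replicate block they were 40 and 29, and with an odd/even term 43 and 30, and all 32 calls were among those of the block. The fit of odd-numbered replicates only, chosen after seeing the data, called 28 higher. The limma fits on log2(RPKM + 1) and log2(RPKM + 0.1) called 7 lower each, and an adjusted p below 0.01 left 5 and 7. Leaving out each library gave 8 to 14 higher and 8 to 11 lower, from fewer samples. The median log2 fold change of the ion carriers, 0.001, ranged from -0.010 to 0.049 with each library left out (0.049 without RRM2_OE replicate 2) and was 0.065 in odd-numbered replicates only. DESeq2 (14 and 12), limma-voom (18 and 14), RLE and upper-quartile factors (17 and 15 each), no filter (15 and 14) and 1 CPM in 4 libraries (17 and 15) stayed within 1.5 times, and DESeq2 kept 25 of the 32 calls. Over the 55 genes of the naming rule and all alternatives, 944 results kept direction and side of the threshold, 156 lost a call, 29 gained one, 26 untested values moved and 0 reversed. The cause was not tested. At 10994255 to 11686152 counts a library, the fold changes of genes near 100 counts are the least precise.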

Other observations

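Some solute carriers under the count limit had larger fold changes than any of the 179 above it. Of the 52 tested, 4 were higher and 3 lower in RRM2_OE (13.5% called, beside 12.8% of all tested genes). Under the replicate block 6 were higher and 4 lower, beside 2303 higher and 2143 lower of all 15286 tested genes. The called carriers are named here after their values were seen. SLC30A3, a zinc carrier of vesicles, was at 1.50, 1.15, 0.537 and 0.359 CPM in MOCK libraries 1 to 4 and 2.78, 2.26, 3.03 and 2.42 CPM in RRM2_OE libraries 1 to 4, without overlap. Its log2 fold change was 1.55 (edgeR adjusted p = 0.00638), at a mean of only 20.125 counts. SLC16A6, a ketone body carrier, was at 4.84, 4.16, 5.82 and 5.02 CPM in MOCK and 8.27, 6.18, 9.53 and 9.50 CPM in RRM2_OE, a log2 fold change of 0.75 (edgeR adjusted p = 0.00779). SLC2A9, the urate carrier GLUT9, was at 4.40, 4.33, 6.27 and 5.11 CPM in MOCK and 7.57, 7.49, 7.71 and 7.34 CPM in RRM2_OE, a log2 fold change of 0.58 (edgeR adjusted p = 0.0112). SLC9A3, the sodium-proton exchanger NHE3, rose by 0.52 on the log2 scale (edgeR adjusted p = 0.00803), and it overlaps SLC9A3-AS1 on the opposite strand. These 4 calls stayed on leaving out any library.

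Among those that fell, SLC24A4, a calcium exchanger, was at 8.36, 6.55, 8.06 and 5.83 CPM in MOCK and 5.57, 4.62, 4.94 and 5.35 CPM in RRM2_OE, without overlap. It fell by 0.49 on the log2 scale (edgeR adjusted p = 0.0362). SLC23A3 fell by 0.73 (edgeR adjusted p = 0.0346) and SLC10A5 by 0.81 (edgeR adjusted p = 0.0351), from 2.31 and 2.52 CPM in the MOCK mean. SLC24A4 and SLC10A5 lost their calls on leaving out any of 6 single libraries and SLC23A3 on leaving out any of 7 (adjusted p up to 0.0992, edgeR).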
